A study of Mus musculus with 8 samples.

Results

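The genes described here encode parts of the CNP and cAMP signalling that sets meiotic arrest of the mouse oocyte, both those that keep the arrest and those that act against it (PDE3A and NPR3), and were read from whole ovaries of juvenile mice. They are *Nppc*, *Npr2*, *Npr3*, *Gpr3*, *Pde3a* and *Adcy3*, taken by symbol from the table of gene counts, 6 of its 45583 symbols, and all 6 passed the filter on low counts that left 16601 genes for testing. Each library came from 1 ovary of a separate female C57/Bl6 mouse aged 3 weeks. The WT group (animals 1118, 1119, 1120 and 1121, n = 4) and the GOAT KO group (animals 1139, 1140, 1141 and 1146, n = 4) were littermates from heterozygous parents, and GOAT KO mice lack in all tissues the enzyme GOAT (ghrelin-O-acyltransferase), which attaches a fatty acid to ghrelin. The comparison asks whether transcripts of the arrest machinery differ in an ovary formed without this enzyme.

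Fully grown oocytes stay arrested in prophase of meiosis because their cAMP is kept high. Granulosa cells of the follicle wall secrete C-type natriuretic peptide (CNP, from *Nppc*), which binds the guanylyl cyclase receptor NPR2 on granulosa and cumulus cells, and the cGMP made there passes through gap junctions into the oocyte and inhibits its phosphodiesterase PDE3A. Within the oocyte the constitutively active receptor GPR3 drives adenylyl cyclases, ADCY3 among them, and the cAMP they make acts through protein kinase A to keep the M-phase kinase inactive until luteinizing hormone ends the arrest. NPR3 is a receptor without a cyclase that binds natriuretic peptides and clears them.

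The counts on genes summed to between 16147216 and 19481798 per library. *Mboat4*, which encodes the enzyme named by the knockout, had 1, 1, 1 and 3 counts in the libraries labelled WT and 5, 7, 7 and 8 in those labelled GOAT KO, which goes against the labels at very low counts. Which part of the gene was deleted is not given in the sources used here, and reads outside that part check nothing, so these counts are no check of the labels. The check the study made of the loss of *Mboat4* in GOAT KO ovaries was a PCR, not analysed here. Every direction below is that of libraries labelled GOAT KO against libraries labelled WT. GOAT KO 1139 stood apart in fat cell markers, and the study left out 1 library of each group without naming it. Values without WT 1120 and GOAT KO 1139, taken here as that pair in an alternative fit, are given where they change a result.

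The sequences below are those over which spliced reads of 5 members were counted, 1 junction per gene, shown because only a read that crosses the boundary between the letter cases counts as spliced. They are the most-read annotated junctions with 25 coding bases on either side, from the GENCODE M21 transcripts of GRCm38, 5′ to 3′, with the upstream exon in lower case and the downstream exon in capitals.
*Nppc*, exons 1 and 2 of 3: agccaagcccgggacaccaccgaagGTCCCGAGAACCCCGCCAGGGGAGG
*Npr2*, exons 13 and 14 of 22: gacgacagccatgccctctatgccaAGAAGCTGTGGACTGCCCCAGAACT
*Npr3*, exons 6 and 7 of 8: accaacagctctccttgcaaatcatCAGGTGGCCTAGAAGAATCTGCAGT
*Pde3a*, exons 13 and 14 of 16: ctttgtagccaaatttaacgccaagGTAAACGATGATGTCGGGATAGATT
*Adcy3*, exons 20 and 21 of 21: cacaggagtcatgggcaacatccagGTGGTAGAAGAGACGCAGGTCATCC

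The intron removed at the *Nppc* junction lies at chr1:86669955-86670348 on the minus strand, and its 77 reads over the 8 libraries came from 6 of them. The *Npr2* junction (intron at chr4:43646701-43646915, plus strand) carried 942 reads, between 78 and 167 in each library. The *Npr3* junction (intron at chr15:11846386-11848468, minus strand) carried 13 reads in 4 libraries. The *Pde3a* junction (intron at chr6:141489003-141490109, plus strand) carried 73 reads, 4 to 15 per library, and the *Adcy3* junction (intron at chr12:4212204-4212604, plus strand) 191 reads, 16 to 37 per library. Splicing was thus read deeply for the cyclase receptor *Npr2* and hardly at all for the clearance receptor *Npr3*.

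*Gpr3* gave no such sequence. Neither of its 2 annotated introns was listed in the junction file of any library, against 51 to 91 counts on the gene per library, and the transcript that the authors assembled in each of the 8 libraries was the single-exon form (chr4:133209340-133211857, minus strand, 2518 bases). The 1 unannotated junction at the gene carried 3 reads, all in WT 1120. At 51 to 91 counts a spliced form used in a small share of transcripts would not be detectable, and even junctions with a median of at least 20 reads over the libraries were at times missing from single files, so that a junction not listed is no measured 0.

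CNP, the ligand, was the member in which the groups separated. *Nppc* (chr1:86666291-86670571, minus strand) was at 11.8, 16.1, 17.2 and 15.9 CPM (counts scaled to library size) in WT 1118, 1119, 1120 and 1121. In GOAT KO 1139, 1140, 1141 and 1146 it was at 22.3, 19.9, 24.1 and 19.2 CPM. No library labelled WT reached the level of any library labelled GOAT KO, with the closest values, 17.2 and 19.2 CPM, in WT 1120 and GOAT KO 1146. The means were 15.2 ± 2.35 CPM for WT and 21.4 ± 2.25 for GOAT KO (SD, n = 4 each).

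The log2 fold change of *Nppc* was 0.49 (SE 0.123, 95% interval 0.22 to 0.76), a level 1.40-fold that of WT, with an unadjusted p = 0.00226 in edgeR's quasi-likelihood test. Adjusted by Benjamini-Hochberg over the 16601 genes, the edgeR p was 0.983, and DESeq2 gave an adjusted p of 0.196. The call rule of the study combines an unadjusted p below 0.05 with a log2 change beyond 0.5 in either direction, and *Nppc* met the limit on p and lay just short of the limit on the fold. Of all genes tested, 1.67% met that rule (278 genes; 437 without WT 1120) and 0 of the 6 members did. With 1 library left out, 1 member met it without WT 1119, WT 1120, GOAT KO 1141 or GOAT KO 1146 and 2 members without WT 1121 or GOAT KO 1140, and none did without WT 1118 or GOAT KO 1139. Over all genes, 279, 437, 283 and 309 were called in the fits with 1 member, in the order named. It was 302 and 319 genes where 2 members met the rule, and 231 and 329 where none did. At the log2 limit of 0.3 that the study used for its Ingenuity Pathway Analysis, a rule added here after the values were seen, 2.85% of all genes and 2 of the 6 members, *Nppc* and *Npr3*, were called. In 1.64% of the tested genes all libraries labelled GOAT KO lay above all libraries labelled WT, and *Nppc* was the only member among them. In 1.27% they all lay below, and no member was among these. At an adjusted p under 0.05, edgeR called 0.0241% of the genes tested and none of the 6 members, of which 2 had an unadjusted p under 0.05, and DESeq2 called none of them either. Of all genes 4.62% had an unadjusted p under 0.05, and 2.49% had one with a higher level in GOAT KO, as *Nppc* and *Npr3* did.

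**Figure D1:**
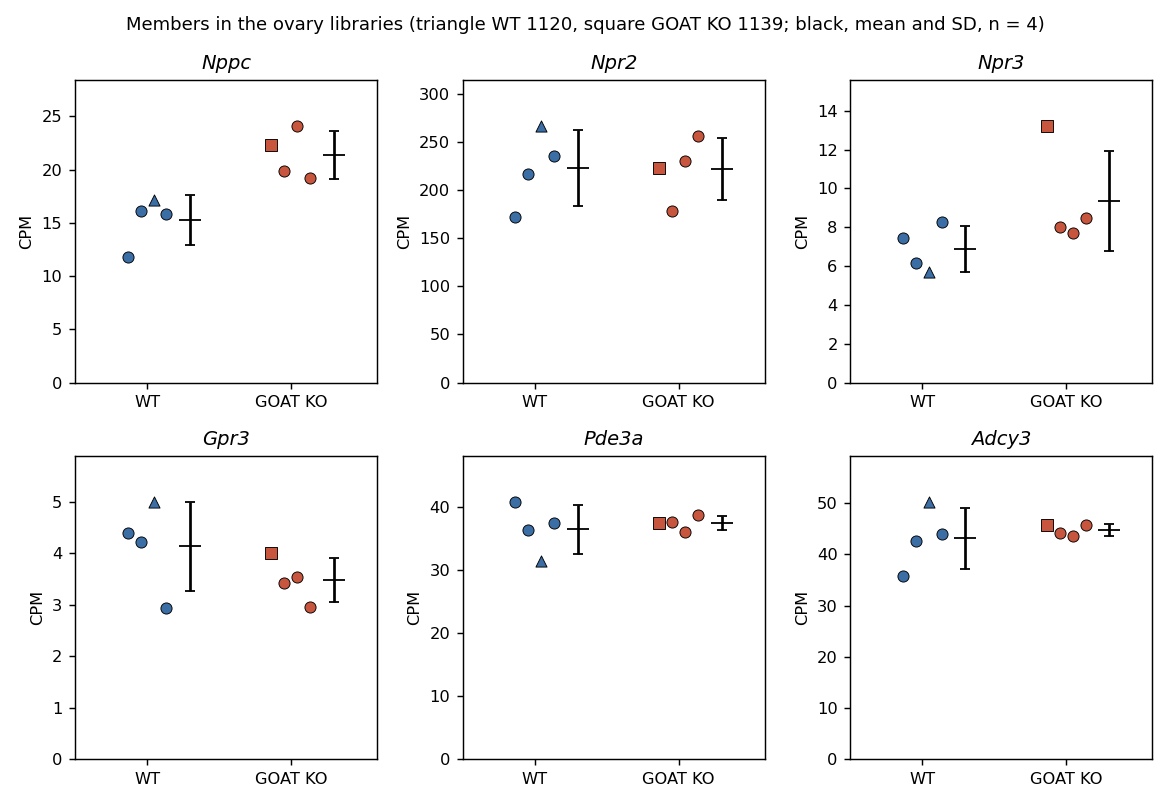
CPM of the 6 members in each library, with a point per library, grouped by label, and the mean and SD (n = 4) in black; each vertical axis starts at 0. Nppc is the member whose groups do not overlap (11.8 to 17.2 CPM in WT, 19.2 to 24.1 in GOAT KO), and GOAT KO 1139 (square) stands alone for Npr3 at 13.2 CPM.

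*Nppc* held its direction and an unadjusted p under 0.05 when any 1 library was left out, with log2 fold changes between 0.38 (without WT 1118, its lowest library) and 0.54 (without WT 1120). Without WT 1120 and GOAT KO 1139 it was 0.53 (unadjusted p = 0.00267 and adjusted p = 0.339 in edgeR), past the fold limit of the study, and *Nppc* was then the 1 member called among 2.39% of all genes.

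The region before the *Nppc* start is shown because *Nppc* was the member whose groups did not overlap. It comprises 250 bases of GRCm38.p6 from RefSeq, chr1:86670574-86670823 on the minus strand, in lower case with the motif matches in capitals.
*Nppc* promoter: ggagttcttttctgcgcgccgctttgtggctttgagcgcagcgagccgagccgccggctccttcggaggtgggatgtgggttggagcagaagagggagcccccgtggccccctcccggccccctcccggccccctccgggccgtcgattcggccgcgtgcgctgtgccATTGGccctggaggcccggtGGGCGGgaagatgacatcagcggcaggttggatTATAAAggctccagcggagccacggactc
A TATA box (TATAAA) starts 29 bases before the start site, at position -29, a GC box (GGGCGG) at -62, and a CCAAT box, on the opposite strand, at -82. Over 300 bases around the start, with both strands searched, TATAAA occurs in 13.6% of the 32851 RefSeq mouse promoters, GGGCGG in 35.7% and CCAAT in 37.4%. The full cAMP response element TGACGTCA, found in 1.79% of promoters, has no match in this window. These matches describe the sequence and are not sites shown to be bound.

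NPR2, the receptor through which CNP raises cGMP, gave overlapping groups. *Npr2* (chr4:43631935-43651244, plus strand) was at 172, 217, 266 and 235 CPM in the WT libraries and at 223, 178, 230 and 256 CPM in the GOAT KO libraries, in the animal order given above. The groups overlapped over most of their range, and WT held both the lowest and the highest library. The means were 222 ± 39.5 CPM in WT and 222 ± 32.2 in GOAT KO (SD, n = 4 each), and the log2 difference was -0.0047 (95% interval -0.30 to 0.29, edgeR's unadjusted p = 0.973). An increase up to 1.22-fold or a decrease to 0.812-fold lies within that interval. The sign turned when single libraries were left out and without WT 1120 and GOAT KO 1139 (0.09), so no direction is given.

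NPR3, the clearance receptor, had a higher mean in GOAT KO, with 1 library far above the rest. *Npr3* (chr15:11839896-11907287, minus strand) was at 7.43, 6.17, 5.71 and 8.29 CPM in the WT libraries and at 13.2, 8.01, 7.73 and 8.48 CPM in the GOAT KO libraries. GOAT KO 1139 held the highest value by far, and the remaining GOAT KO libraries lay within or just above the WT range. The log2 fold change was 0.44 (SE 0.191, 95% interval 0.02 to 0.86, unadjusted p = 0.0429 and adjusted p = 0.983 in edgeR). It was 0.23 (edgeR's unadjusted p = 0.156) without GOAT KO 1139 and 0.14 (unadjusted p = 0.327) without WT 1120 and GOAT KO 1139, and an unadjusted p under 0.05 was also lost without WT 1118 (0.47), WT 1119 (0.38) or WT 1120 (0.35). *Npr3* met both limits of the call rule without WT 1121 (0.54), GOAT KO 1140 (0.50) or GOAT KO 1141 (0.52).

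GOAT KO 1139 also stood out in transcripts of other cells, most of all those of fat cells. The 4 fat cell markers (*Adipoq*, *Plin1*, *Cidec* and *Lep*), none of them at 0 in all libraries, summed to between 7.06 and 15.6 CPM in the WT libraries and to 15.7, 13.3 and 18.1 CPM in GOAT KO 1140, 1141 and 1146, but to 165 CPM in GOAT KO 1139. *Adipoq*, the adiponectin gene, was at 96.7 CPM in that library and at 0.29 to 2.99 CPM in the other 7. The 5 stromal fibroblast markers summed to between 1070 and 1301 CPM in WT and between 1238 and 1375 in GOAT KO, with WT 1120, the library with the least *Npr3*, the lowest. GOAT KO 1139 was also the highest library for the 5 ovarian surface epithelium markers (145 CPM, beside 97.4 to 127 in the other 7), the 4 oviduct markers (14.6 CPM, beside 4.52 to 11.5) and the 5 theca and steroidogenic cell markers (3128 CPM, beside 1930 to 3086). Among the last, *Star* was at 233.5 CPM, beside 8.14 to 31.9, and *Cyp17a1* at 601 CPM, beside 42.4 to 355. The other theca markers lay within the range of the other 7 libraries. *Cyp11a1* was at 443 CPM, beside 197 to 472, *Hsd3b1* at 1851 CPM, beside 1658 to 2284, and *Insl3* at 0.36 CPM, beside 0.12 to 0.70. The part of any of these cell types in the *Npr3* value was not tested beyond the fits without these libraries. In a whole ovary fewer cells of a type and less RNA per cell cannot be told apart, for *Npr3* as for every gene here.

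**Figure D2:**
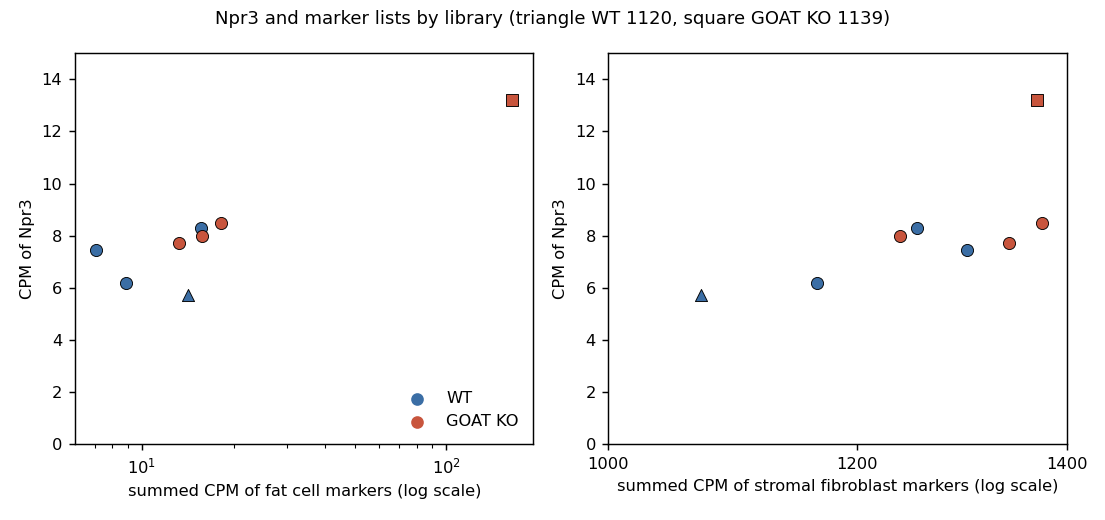
CPM of Npr3 (vertical axis) against the summed CPM of 4 fat cell markers (left) and 5 stromal fibroblast markers (right), both on log scales, with a point per library coloured by label. GOAT KO 1139 (square) has 165 CPM of fat cell markers and 13.2 CPM of Npr3, and the other 7 libraries hold 5.71 to 8.48 CPM of Npr3 at 7.06 to 18.1 CPM of these markers.

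**Figure D3:**
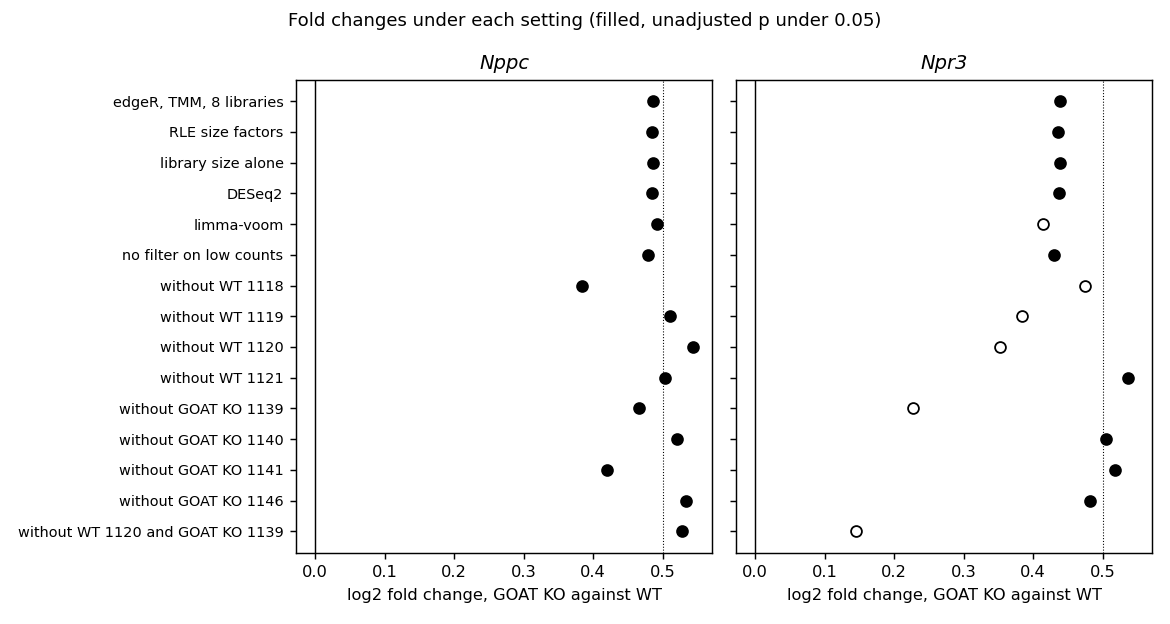
Log2 fold changes of Nppc (left) and Npr3 (right) under the main fit (edgeR, TMM, 8 libraries) and 14 alternatives, filled where the unadjusted p is under 0.05; the dotted line marks 0.5. All 15 values of Nppc are filled and lie between 0.38 and 0.54, while those of Npr3 run from 0.14 to 0.54 and are open in 6 of the 15 settings, without GOAT KO 1139 among them.

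GPR3, the oocyte receptor that keeps adenylyl cyclase active, had the lowest counts of the members. *Gpr3* (chr4:133209340-133212536, minus strand) was at 4.40, 4.22, 4.99 and 2.94 CPM in the WT libraries and at 4.01, 3.42, 3.53 and 2.96 CPM in the GOAT KO libraries. WT 1121 held the lowest value of all and the other WT libraries the 3 highest, so the groups overlapped through that animal. With 51 to 91 counts per library, counting error alone was 10.5 to 14% of a value. The log2 fold change was -0.25 (95% interval -0.65 to 0.15, edgeR's unadjusted p = 0.195), and it was -0.39 (unadjusted p = 0.0357) without WT 1121. With any other single library left out it lay between -0.32 (edgeR's unadjusted p = 0.129, without GOAT KO 1139) and -0.15 (unadjusted p = 0.446, without WT 1120).

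PDE3A, which breaks down cAMP in the oocyte, and ADCY3, which makes it, both had group means within 4% of each other. *Pde3a* (chr6:141249269-141507448, plus strand) was at 40.8, 36.3, 31.4 and 37.5 CPM in the WT libraries and at 37.5, 37.6, 36.0 and 38.7 CPM in the GOAT KO libraries. The highest and the lowest *Pde3a* values, in WT 1118 and WT 1120, both carried the WT label, and the GOAT KO libraries lay between them. Its log2 fold change was 0.04 (95% interval -0.14 to 0.22, edgeR's unadjusted p = 0.656), and it turned negative without WT 1120.

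*Adcy3* (chr12:4133103-4213525, plus strand) was at 35.7, 42.6, 50.2 and 44.0 CPM in the WT libraries and at 45.8, 44.1, 43.6 and 45.7 CPM in the GOAT KO libraries. As for *Pde3a*, the range of WT enclosed that of GOAT KO, here with WT 1118 lowest and WT 1120 highest. The log2 fold change was 0.05 (95% interval -0.15 to 0.26, edgeR's unadjusted p = 0.567), and it turned negative without WT 1118. The intervals of *Pde3a* and *Adcy3* leave room for increases up to 1.16-fold and 1.20-fold and decreases to 0.906-fold and 0.901-fold.

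Levels between genes were compared per kilobase of exon (RPKM, from the CPM and the merged length of all annotated exons). The order in the ovary was *Npr2* at 47.6 ± 7.15 RPKM, *Nppc* at 17.6 ± 3.75, *Adcy3* at 7.04 ± 0.650, *Pde3a* at 2.90 ± 0.212, *Gpr3* at 1.39 ± 0.264 and *Npr3* at 0.866 ± 0.243 RPKM (SD over 8 libraries). The ranges of neighbours in this order did not overlap, except those of *Gpr3* and *Npr3*, although *Gpr3* was above *Npr3* in each of the 8 libraries. Merged exon length was 1042 bases for *Nppc* and 12737 for *Pde3a*, and where a shorter form is in use the level per kilobase is understated. The ligand and its signalling receptor were thus the most abundant members per length, and the oocyte receptor and the clearance receptor the least.

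Several members overlap a gene on the other strand. *Adcy3* overlaps *Cenpo* over 17522 bases and *Gpr3* overlaps *Cd164l2* over 406 bases, and *Npr2*, *Npr3* and *Pde3a* each overlap a noncoding gene. *Pde3a* also overlaps *Gm10400* and *Gm43958* on its own strand. The overlap lengths are of whole genes with their introns (the merged exons of *Adcy3* hold 6246 bases), and shared exon bases were not counted. Whether the counting used the strand is not given in the sources used here. Without it, reads where exons of both genes overlap cannot be told apart. *Cenpo* had a log2 fold change of -0.04 (edgeR's unadjusted p = 0.574) and *Cd164l2* of -0.09 (edgeR's unadjusted p = 0.513). *Nppc* overlaps no annotated gene.

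Ratios within a library do not depend on its scaling. *Nppc* counts were 6.88, 7.44, 6.45 and 6.75% of *Npr2* counts in the WT libraries and 10.02, 11.1, 10.5 and 7.52% in the GOAT KO libraries. The groups did not overlap, though GOAT KO 1146 came within 0.1 percentage points of WT 1119. The log2 ratio was 0.49 higher in GOAT KO (1.41-fold; two-sided exact permutation test over 4 against 4 libraries, p = 0.0286, the smallest this design allows, and 0.1 after Benjamini-Hochberg adjustment over 7 ratios). The exact permutation p was 0.0571 when any 1 of the WT libraries was left out.

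The ratio of *Nppc* to the summed counts of 9 granulosa cell markers also separated the groups, with log2 ratios of -8.89 to -8.59 in WT and -8.46 to -8.26 in GOAT KO. The difference was 0.36 (1.28-fold, exact permutation p = 0.0286, adjusted p = 0.1). This ratio and that to *Npr2* hold the same *Nppc* counts. *Inha* was the largest part of the marker sum, at 3093 to 3951 CPM. The granulosa markers themselves summed to between 5640 and 7259 CPM in WT and between 6605 and 7379 in GOAT KO (log2 difference 0.14, exact permutation p = 0.143 and adjusted p = 0.429 over 12 marker lists), lowest in WT 1118, where *Nppc* was lowest too. *Npr2* relative to the same markers differed by -0.14 on the log2 scale (exact permutation p = 0.314).

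The ratios of *Gpr3* and *Pde3a*, the members with a part in the oocyte, overlapped between groups. Whole ovaries were read, so which cells held these transcripts was not measured. *Gpr3* relative to 9 markers of growing oocytes was 0.33 lower on the log2 scale in GOAT KO (exact permutation p = 0.0571, adjusted p = 0.133), with log2 ratios of -8.99 to -8.30 in WT and -9.04 to -8.69 in GOAT KO. *Pde3a* relative to the same markers differed by -0.06 (exact permutation p = 0.486) and *Gpr3* relative to *Pde3a* by -0.27 (p = 0.257). The *Gpr3* to *Pde3a* difference was -0.10 without WT 1120, -0.44 without WT 1121 and -0.17 without WT 1120 and GOAT KO 1139. The growing oocyte markers summed to between 1505 and 1818 CPM in WT and between 1580 and 1861 in GOAT KO. *Npr3* relative to *Npr2* was 0.42 higher on the log2 scale (exact permutation p = 0.257), with the groups overlapping. That difference was 0.24 without WT 1120, 0.25 without GOAT KO 1139 and 0.067 without both (exact permutation p = 0.9).

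**Figure D4:**
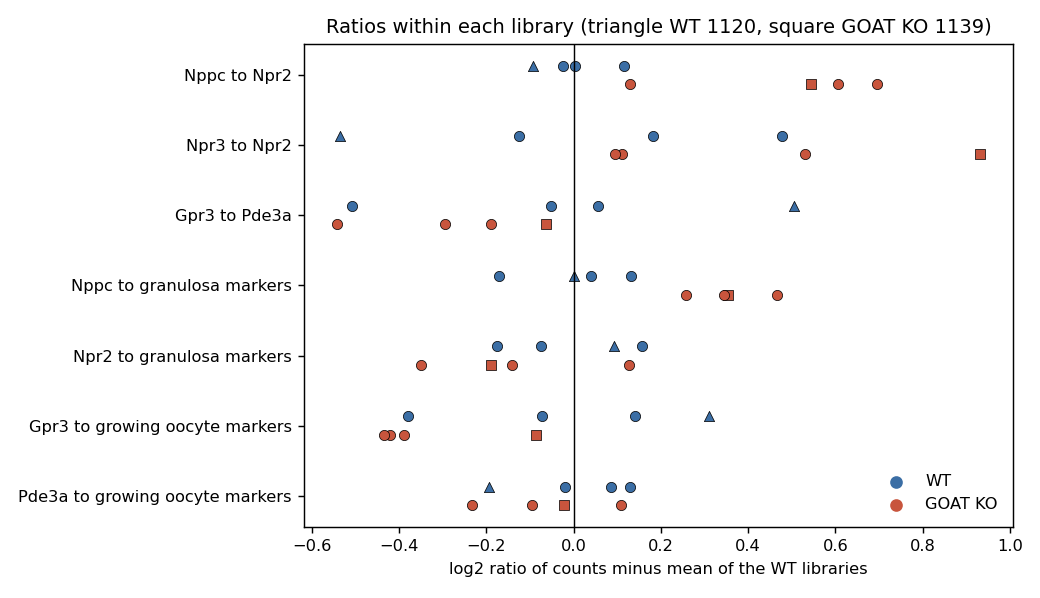
Log2 ratios of counts within each library, shown as the difference from the mean of the WT libraries (horizontal axis, 0 is the WT mean), for the 7 ratios; a point is 1 library, coloured by label. The groups do not overlap for Nppc to Npr2 and for Nppc to granulosa markers, whose mean differences are 0.49 and 0.36, and they overlap for the other 5.

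All 12 marker lists had at least some counts in every library, among them the oocytes of small follicles (54.2 to 77.1 CPM), growing oocytes, granulosa cells and theca cells that an ovary of this age holds. None of the 12 lists passed the exact permutation test between groups (smallest p = 0.0857, for stromal fibroblasts) with all 8 libraries. With 1 library left out 3 lists reached an exact permutation p = 0.0286, theca cells (log2 difference 0.39) and striated muscle (0.46) without WT 1120, and fat cells (1.73) without GOAT KO 1141. The fat cell difference was 1.37 with all 8 libraries and 0.52 without GOAT KO 1139.

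The members varied with each other to a limited degree. Of the 15 pairs, 1 had an unadjusted p under 0.05 for Pearson's r over the 8 libraries and none passed after adjustment. That pair was *Npr2* and *Adcy3* (r = 0.78, exact permutation p = 0.0106, adjusted p = 0.159; Spearman's rho = 0.67, p = 0.0831, adjusted p = 0.623), positive within both groups and with r = 0.81 without the 2 libraries farthest from the median of *Npr2*, WT 1118 and GOAT KO 1140. *Pde3a* and *Adcy3* had r = -0.76 (exact permutation p = 0.0614, adjusted p = 0.383; Spearman's rho = -0.33, p = 0.428, adjusted p = 0.713), which rested on WT 1118 and WT 1120 and was 0.77 without them. *Nppc* and *Npr2*, ligand and receptor, had r = 0.38 (exact permutation p = 0.355, adjusted p = 0.63; Spearman's rho = 0.17, p = 0.703, adjusted p = 0.812), and r = -0.28 without WT 1118 and GOAT KO 1141.

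The genes most like each member across the 8 libraries are given by Pearson's r of log2(CPM + 0.5), as a description without a test, since the highest of so many values is high by selection. For *Nppc* they were *Gm14513*, *Tax1bp3* and *Cdip1* (r = 0.98, 0.98 and 0.98). *Npr2* was followed most closely by *Fam122b* (0.98), *Crispld2* (0.97) and *Capn10* (0.96), and *Npr3* by *Sept12* (0.96), *Podn* (0.94) and *Egfl6* (0.94). The nearest to *Gpr3* were *Ppan* (0.97), *Ubqln2* (0.97) and *Bcl7b* (0.96). *Pde3a* ran with *Dock1* (0.98), *Myo1c* (0.97) and *Akap12* (0.97), and *Adcy3* with *Tmem199*, *Hmgn1* and *Slirp* (0.98 each). None of these genes is a member or a gene of the pathway lists.

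The rest of the pathway was read from 6 lists of 88 genes, of which 79 were tested. No gene of the lists met the rule of the study (background 1.67%), and the median log2 fold change of the 79 was 0.0007, beside -0.0003 over all genes. An unadjusted p under 0.05 was reached by 3 of the 79 (4.62% of all genes), and these and *Cdc25c* are named although they fall outside the naming rule, chosen after their values were seen. *Fshr*, the receptor through which follicle-stimulating hormone acts on granulosa cells, was at 32.7 to 42.8 CPM in WT and 37.0 to 64.3 in GOAT KO (log2 fold change 0.47, edgeR's unadjusted p = 0.0141), and *Impdh2*, an enzyme of guanine nucleotide synthesis, at 8.55 to 14.05 CPM and 13.4 to 18.0 CPM (0.39, edgeR's unadjusted p = 0.0248). *Prkar1b*, a regulatory subunit of protein kinase A, was at 31.2 to 36.5 CPM in WT and 27.6 to 29.9 in GOAT KO, without overlap (-0.23, edgeR's unadjusted p = 0.00824). The groups also did not overlap for *Cdc25c*, an activator of the M-phase kinase, at 12.5 to 19.4 CPM in WT and 19.9 to 22.2 in GOAT KO (0.26, edgeR's unadjusted p = 0.0704), so that 1 of the 79 genes lay wholly below and 1 wholly above, beside 1.27% and 1.64% of all genes. The adjusted edgeR p of these 4 genes was 0.983.

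In the CNP and cGMP list 11 of 14 genes were tested, with 1 (*Impdh2*) at an unadjusted p under 0.05. The log2 fold change was below 0 in 9 of the 11 (median -0.10), beside 8319 of all 16601 genes tested, and directions were not tested as a set. Most expressed per length were *Npr1*, the receptor of the related peptides ANP and BNP, at 117 ± 4.93 CPM in WT and 111 ± 5.21 in GOAT KO (log2 fold change -0.07, edgeR's unadjusted p = 0.269), and *Impdh1*, the second enzyme of guanine nucleotide synthesis in the list, at 69.3 ± 11.9 and 64.6 ± 7.42 CPM (-0.10, edgeR's unadjusted p = 0.418). The genes of ANP, *Nppa*, and osteocrin, *Ostn*, a peptide that binds NPR3, fell under the filter, as did *Nppb*, so *Nppc* was the natriuretic peptide gene with measurable expression.

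Of 12 genes of cAMP production 8 were tested, none reached an unadjusted p under 0.05, and their log2 fold changes ran from -0.11 to 0.14. *Gnas*, the stimulatory G protein to which GPR3 couples, was at 834 ± 43.0 CPM in WT and 829 ± 12.4 in GOAT KO, and *Adcy6*, another adenylyl cyclase, at 145 ± 8.97 and 148 ± 8.34 CPM. *Gpr12*, the relative of *Gpr3*, and *Gpr6* were under the filter. None of the 16 other phosphodiesterases tested reached an unadjusted p under 0.05, among them *Pde8a* (log2 fold change 0.02, edgeR's unadjusted p = 0.844) and *Pde7b* (0.04, edgeR's unadjusted p = 0.806).

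Of the 11 protein kinase A genes, 1 (*Prkar1b*) had an unadjusted p under 0.05. The most expressed were the regulatory subunits *Prkar2b*, at 834 ± 376 CPM in WT and 939 ± 78.1 in GOAT KO, and *Prkar1a*, at 435 ± 41.5 and 466 ± 71.1 CPM. *Prkar2b* spread from 551 to 1387 CPM within WT alone. None of the 21 genes of M-phase entry reached an unadjusted p under 0.05 (median log2 fold change 0.03), with *Ccnb2*, a cyclin B, at 94.2 ± 4.73 and 96.4 ± 3.59 CPM and *Bub1b*, a spindle checkpoint kinase, at 179 ± 9.16 and 192 ± 7.41 CPM.

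In the list of follicle signals 12 of 13 genes were tested, with *Fshr* at an unadjusted p under 0.05. The log2 fold change was positive in 9 of the 12 (median 0.07), beside 8282 of all 16601 genes tested. *Gdf9*, the oocyte growth factor, was at 305 ± 28.5 CPM in WT and 310 ± 20.9 in GOAT KO, and *Gja1*, the connexin of granulosa cell gap junctions, at 3463 ± 229 and 3717 ± 94.3 CPM (log2 fold change 0.10, edgeR's unadjusted p = 0.163). *Areg*, an epidermal growth factor-like signal of the ovulatory follicle, had 0 counts in all 8 libraries.

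**Figure D5:**
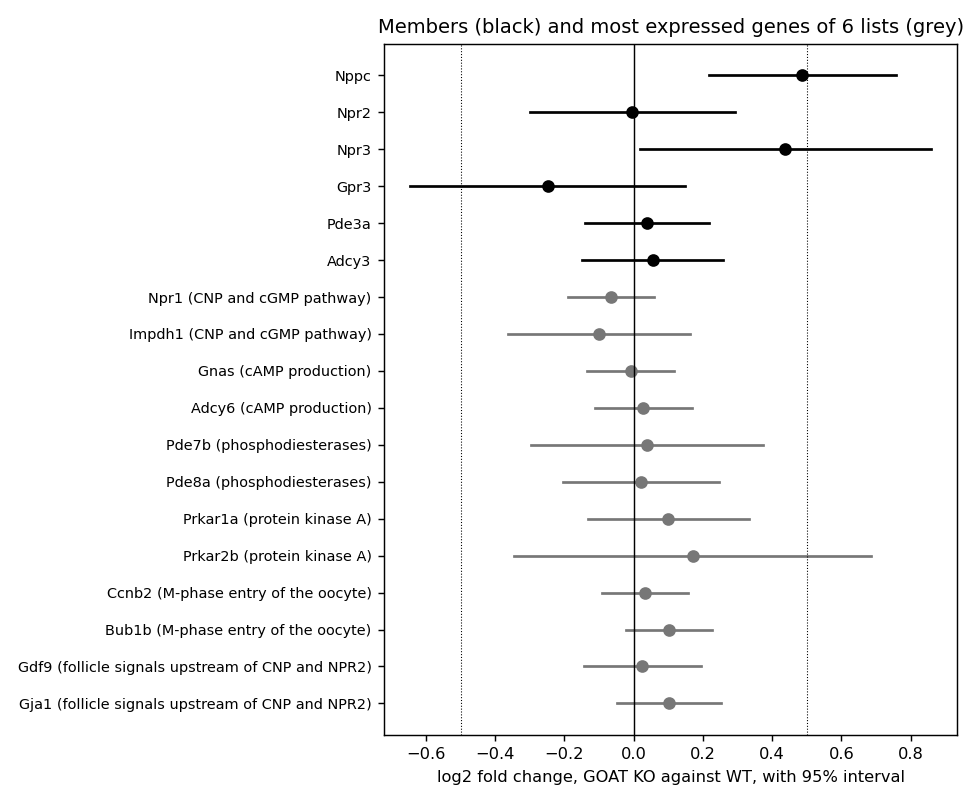
Log2 fold changes of GOAT KO against WT (horizontal axis) with 95% intervals from edgeR for the 6 members (black) and for the 2 most expressed genes per length in each of 6 lists (grey, list in brackets); dotted lines mark 0.5 and -0.5. Nppc at 0.49 and Npr3 at 0.44 are the members whose intervals exclude 0.

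The members lie on 5 chromosomes. Within 5 Mb of *Gpr3* on chromosome 4, 7 of 167 tested genes (4.19%) met the rule of the study and 23 (13.8%) had an unadjusted p under 0.05, beside 1.67% and 4.62% of all genes. Within 5 Mb of the other members the shares called were 1 of 78 for *Nppc*, 1 of 110 for *Npr2*, and none for *Npr3* (33 genes), *Pde3a* (49) and *Adcy3* (35). An unadjusted p under 0.05 was reached by 4 genes (5.13%) around *Nppc* and 3 (2.73%) around *Npr2*. Around *Npr3*, *Pde3a* and *Adcy3* it was 1, 2 and 0. *Gpr3* itself was not among the genes called, and neighbours were not tested as a set.

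Reads over annotated splice junctions gave a second readout of 5 members, but an uneven one. Of 39067 junctions with a median of at least 20 reads over the 8 libraries, 11.9% were missing from the file of at least 1 library, most often of WT 1118 (4.79% missing, beside 1.12 to 2.11% in the other 7). Both *Nppc* junctions, which have fewer reads than these, were missing in WT 1118, where the gene had 191 counts. A missing junction can therefore not be told apart from one without reads. All missing junctions were entered as 0 in the sums and tests below, which can make a sum too low.

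Summed over annotated introns, *Nppc* had 24, 25 and 12 junction reads in WT 1119, 1120 and 1121 and 23, 26, 53 and 18 in the GOAT KO libraries. Scaled to 1000000 gene counts this was 0.840 ± 0.652 in WT and 1.68 ± 0.729 in GOAT KO (SD, n = 4 each), with both junctions of WT 1118 and 1 of the 2 of GOAT KO 1146 missing. The groups overlapped (difference 0.840, exact permutation p = 0.171, adjusted p = 0.619 over 5 members), and the difference was 0.493 without GOAT KO 1141 and 0.560 without WT 1118. *Npr2*, with 9175 junction reads in all, was at 64.8 ± 13.1 and 64.9 ± 7.26 on this scale (exact permutation p = 1), and *Adcy3* at 9.44 ± 1.91 and 10.9 ± 1.25 (exact permutation p = 0.286). The introns missing in some library were 4 of the 23 read for *Npr2* and 16 of 25 for *Adcy3*, and for *Adcy3* over the junctions read in all 8 the difference turned from 1.49 to -0.14. *Pde3a* was at 2.33 ± 1.37 and 2.10 ± 0.287 (exact permutation p = 0.771), and *Npr3*, with 59 reads in all, at 0.302 ± 0.170 and 0.541 ± 0.397 (exact permutation p = 0.371), with the highest value, 1.07, in GOAT KO 1139. The *Npr3* difference of 0.240 was 0.062 without GOAT KO 1139 and -0.0014 without WT 1120 and GOAT KO 1139. For *Pde3a* 11 of the 12 introns read and for *Npr3* 9 of 9 were missing in some library, so the values of these genes, their order over the libraries included, rest on junctions entered as 0.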

How the data were processed

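RNA of 8 ovaries was sequenced by the authors as 50-base single reads, aligned to mm10 (GRCm38) with TopHat 2.0.14, counted per known gene (GENCODE vM6) and assembled with StringTie 1.0.4. The counting tool and the use of strand are not given in the sources used here. Deposited were whole-number counts per gene symbol, counts of reads per splice junction and library, and the percent of reads that mapped. Per the file headers 85.9 to 87.0 percent mapped to the genome and 60.7 to 62.6 percent to 1 feature. The score of the assembled transcripts, deposited by the authors, is constant and was not used.

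Counts were tested with edgeR 4.0.16 in R 4.3.3 (TMM scaling, filterByExpr with its minimum count of 10 and minimum total of 15, quasi-likelihood test, Benjamini-Hochberg over 16601 genes). CPM are TMM-scaled, and RPKM divide them by merged exon length (GENCODE M21). Ratios used log2 of counts plus 0.5. Exact permutation tests were two-sided over all 70 regroupings of 4 against 4 libraries, with a smallest p of 0.0286. Group SDs are over mice, and counting error is 1 over the square root of the counts. Replicates of one group differed by more than sampling noise (chi-square per gene 4.22 to 27.1), so each counts once. The fit and the tests were checked on simulated data.

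Alternatives were RLE factors, library size alone, DESeq2 1.42.0, limma-voom (limma 3.58.1), no filter, each library left out, a pseudocount of 5 in ratios, and WT 1120 and GOAT KO 1139 left out. Named are the members, the 2 pathway genes per list with most RPKM, any called, and the 3 genes most like each member by r. The members, the lists and the rules were chosen with earlier results of these data known.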

Additional observations from a re-analysis of the deposited data

Results flagged for a closer look

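Among 50 sets of 4 values examined (members, ratios and marker lists in each group), a library lay far from the other 3 of its group 4 times, where chance gives about 1 in 20. All 4 were GOAT KO 1139. It had 13.2 CPM of *Npr3*, beside 7.73 to 8.48 in the other GOAT KO libraries. Its log2 ratio of *Gpr3* to growing oocyte markers was -8.69, beside -9.04 to -9.00. Its summed CPM was 165 for fat cell markers, beside 13.3 to 18.1, and 145 for ovarian surface epithelium markers, beside 112.5 to 117.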

How the results depend on the processing

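*Nppc* kept its direction and an unadjusted p under 0.05 under all 14 alternatives, with log2 fold changes between 0.38 and 0.54. RLE factors, library size alone, DESeq2 and the fit without a filter moved no member across an unadjusted p of 0.05, and limma-voom moved *Npr3* (0.41) across it and gave *Npr2* a positive sign (0.0010). Without WT 1120 and GOAT KO 1139 the values were 0.14 for *Npr3*, 0.091 for *Npr2* and -0.029 for *Pde3a*, and the fits hold 2 libraries fewer. With each library left out in turn the log2 fold change ranged from 0.23 to 0.54 for *Npr3*, -0.11 to 0.090 for *Npr2*, -0.39 to -0.15 for *Gpr3*, -0.033 to 0.094 for *Pde3a* and -0.025 to 0.13 for *Adcy3*. The cause of these shifts was not tested.

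The number of genes called by the rule of the study, 278, ranged from 231 to 437 with single libraries left out (437 without WT 1120) and was 691 without the filter, which tests more genes. At an adjusted p under 0.05 it was 4, with 3 to 14 when single libraries were left out (14 without GOAT KO 1139), 13 by DESeq2, 7 without the filter and 20 without WT 1120 and GOAT KO 1139. Members called by the rule of the study numbered 0 to 2 with single libraries left out (2 without WT 1121 or GOAT KO 1140) and 1 without WT 1120 and GOAT KO 1139. At the log2 limit of 0.3, and at an unadjusted p under 0.05 alone, they numbered 1 to 3 with single libraries left out, 1 by limma-voom and 1 without WT 1120 and GOAT KO 1139. In the main fit 2.85% and 4.62% of all genes met these 2 limits, and the shares in the other fits were not counted. Pathway genes called by the rule of the study numbered 0 to 2 with single libraries left out and 2 without WT 1120 and GOAT KO 1139. Without that pair of libraries the rule called 398 of all genes (2.39%).

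With single libraries left out the log2 ratio of *Nppc* to *Npr2* stayed between 0.43 and 0.62 higher in GOAT KO, and its exact permutation p was 0.0571 whenever a WT library was left out. The other 6 ratios kept their sign in these fits, and a pseudocount of 5 counts moved none across the threshold. Their sizes shifted, from 0.24 to 0.58 for *Npr3* to *Npr2* and from -0.44 to -0.10 for *Gpr3* to *Pde3a*. Relative to granulosa markers the range was 0.30 to 0.40 for *Nppc* and -0.23 to -0.068 for *Npr2*. Relative to growing oocyte markers it was -0.46 to -0.23 for *Gpr3* and -0.13 to -0.0033 for *Pde3a*. The difference in junction reads scaled to 1000000 gene counts ranged from -5.36 to 5.12 for *Npr2* and -0.71 to 0.36 for *Pde3a*, and was -6.08 for *Npr2* scaled to junction reads. Restricted to junctions read in all 8 libraries, an alternative added after the data were seen, it was -0.14 for *Adcy3*. Summed markers ranged from -0.023 to 0.11 (log2) for the ovarian surface, from -0.45 to 0.22 for red blood cells, from 0.52 to 1.73 for fat cells, from 0.16 to 0.39 for theca cells and from 0.19 to 0.46 for striated muscle, and the last 3 each reached an exact permutation p of 0.0286 with 1 library left out. No paired analysis was possible because the groups share no replicate numbers. Counts were lowest for *Gpr3* and *Npr3* (51 to 91 and 104 to 221 per library), with a counting error of 10.5 to 14% and 6.73 to 9.81% of a value; the spread of *Npr3* over the 8 libraries was 28.1% (SD over mean).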
